A study of Mus musculus with 9 samples.

Results

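Imprinted genes are expressed mainly or only from the allele inherited from the mother or from that inherited from the father. The choice is set by DNA methylation laid down in the germ line at imprinting control regions, and it is kept in the tissues of the offspring. Many imprinted genes are expressed in the hypothalamus, and several of them are known for roles in growth, feeding or the nursing of young. Snord116, the small nucleolar RNA cluster deleted in this experiment, belongs to the paternally expressed Prader-Willi locus on mouse chromosome 7. Here 9 imprinted genes outside that locus were followed. They were chosen by symbol from the genes with an entry in the deposited table, 9 of 13588 entries. All 9 were measured, and all 9 passed the filter on low values. The reads were summed over both alleles, so the data give the amount of RNA and not the allele it came from.

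The mice were males homozygous for a floxed Snord116 allele (B6(Cg)-Snord116tm1Uta/J) on the C57BL/6J strain, injected at 10 to 12 weeks of age into the mediobasal hypothalamus on both sides. Control mice received AAV-GFP, with GFP driven by the CMV promoter, and test mice received AAV-Cre, with Cre driven by the CAG promoter. The AAV-Cre stock had a higher titre than the AAV-GFP stock, so Cre, promoter and vector dose differ together between these mice. Neither promoter is specific to a cell type, and only the injected cells of an adult can lose the cluster, so every mouse had developed with it. At 10 weeks after injection, RNA of a laser-captured region was sequenced as a separate library for each of 3 AAV-GFP mice, 3 AAV-Cre obese-labelled mice and 3 AAV-Cre nonobese-labelled mice. The regions were cut where Cre was stained in neighbouring sections, or matched to such a region in AAV-GFP mice. Sample titles and weight labels contradict each other on the AAV-Cre subsets: the mice whose titles hold the word obese have a nonobese weight label, and the reverse. Here the weight label names each subset, and every statement on obese or nonobese mice rests on that label.

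The unit throughout, called signal, is the authors' reads per gene divided by a TMM-scaled library size and multiplied as in CPM (TMM is edgeR's scaling by a trimmed mean of ratios). Libraries held between 3929672 and 5766994 reads. None of the 17 annotated Snord116 genes had an entry (0 of 17), so the deletion itself was not measured in these values. The vectors matched the labels, with a Cre signal between 235 and 8557 in AAV-Cre mice and under 1 in AAV-GFP mice, and a Gfp signal between 62.7 and 79.0 in AAV-GFP mice and 0 in AAV-Cre mice. Libraries stood apart in ways the labels do not give. The summed signal of 6 genes of MHC class I and interferon response was 3791 in obese mouse 1 and 3507 in obese mouse 3, against 149 to 275 in the other 7 mice. Those 2 mice were also the lowest of the AAV-Cre mice in Cre signal and the lowest of all 9 in the sum of 8 neuron markers, at 2209 and 2071 against 2491 to 3069. Nr5a1, which marks the ventromedial nucleus, had 0 reads in AAV-GFP mouse 3, obese mice 1 and 3 and nonobese mouse 3, and between 62 and 203 reads in the other mice.

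The genes lie in 7 imprinted regions of 5 chromosomes (positions are from the GENCODE M21 annotation of GRCm38). Peg3 (ENSMUSG00000002265), a paternally expressed zinc finger protein known for roles in maternal care and energy balance, spans chr7:6703892-6730431 on the minus strand. Usp29 (ENSMUSG00000051527), a deubiquitinase gene also expressed from the paternal allele, spans chr7:6730578-6967219 on the plus strand. The 2 genes are transcribed away from each other out of the Peg3 imprinting control region, and the stretch between their annotated starts is 146 bases long (chr7:6730432-6730577). It is shown, on the plus strand of GRCm38, because it is the start shared by this divergent pair, whose levels are set side by side further on. Capitals mark its 5 CpG sites, the dinucleotides at which imprinting methylation is placed, and 61.6% of its bases are G or C.
between Peg3 and Usp29: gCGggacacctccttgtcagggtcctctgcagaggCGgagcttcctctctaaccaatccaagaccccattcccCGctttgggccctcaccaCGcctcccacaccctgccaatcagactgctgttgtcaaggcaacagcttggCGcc

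On chromosome 12, Dlk1 (ENSMUSG00000040856, chr12:109452823-109463336, plus strand) encodes a membrane protein that restrains differentiation of fat cell precursors and is expressed from the paternal allele. Meg3 (ENSMUSG00000021268, chr12:109541001-109571726, plus strand) is a long noncoding RNA of the maternal allele in the same Dlk1-Dio3 cluster. Nnat (ENSMUSG00000067786, chr2:157560078-157562522, plus strand), a small membrane protein of neurons, lies within the bounds of Blcap, which runs on the opposite strand. Gnas (ENSMUSG00000027523, chr2:174284320-174346744, plus strand) encodes the stimulatory G protein alpha subunit that couples receptors such as the melanocortin 4 receptor to cAMP, together with longer products of other imprinted promoters. Its entry sums these products, and the antisense Nespas overlaps it. Impact (ENSMUSG00000024423, chr18:12955852-12992950, plus strand) is an inhibitor of the kinase GCN2 that is abundant in neurons. Cdkn1c (ENSMUSG00000037664, chr7:143458339-143461050, minus strand) is a maternally expressed inhibitor of the cell cycle. Grb10 (ENSMUSG00000020176, chr11:11930508-12038683, minus strand) is an adaptor that restrains insulin receptor signalling and, unlike in most tissues, is expressed from the paternal allele in neurons. The library kit keeps strand, but the strand setting of the authors' counting is not given in the sources used here, so reads of Nnat and Blcap, or of Gnas and Nespas, may not have been kept apart.

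Most of these genes were abundant in the captured hypothalamus. Per kb of exon, Meg3 had the highest signal, 298.7 ± 53.5 (SD, n = 9 mice), followed by Peg3 with 197 ± 19.9. Both were among the 20 most abundant of 13506 tested entries by signal not divided by length, at rank 9 and rank 17. Nnat had 150.4 ± 20.03 per kb and Impact 115 ± 10.5. Next by this measure came Gnas, 41.9 ± 6.32 per kb, Dlk1, 35.5 ± 7.10, and Grb10, 21.1 ± 2.93. The order depends on the length used, which pools all annotated exons of a gene. For Gnas these are 11186 bases over all its products. Not divided by length, Gnas had a mean signal of 468 (rank 150), above Nnat with 275 (rank 374). Usp29 had 7.09 ± 1.01 per kb and Cdkn1c 1.82 ± 1.47, against a median of 5.06 per kb over all tested entries with a length. Neighbours in this order kept it in all 9 libraries, except Gnas over Dlk1 (6 of 9) and Dlk1 over Grb10 (8 of 9). Ranges over the mice were fully apart only between Impact and Gnas, Grb10 and Usp29, and Usp29 and Cdkn1c, and the other neighbours overlapped. The share of all reads that fell on the 9 genes was between 0.870% and 1.15% of a library.

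**Figure D1:**
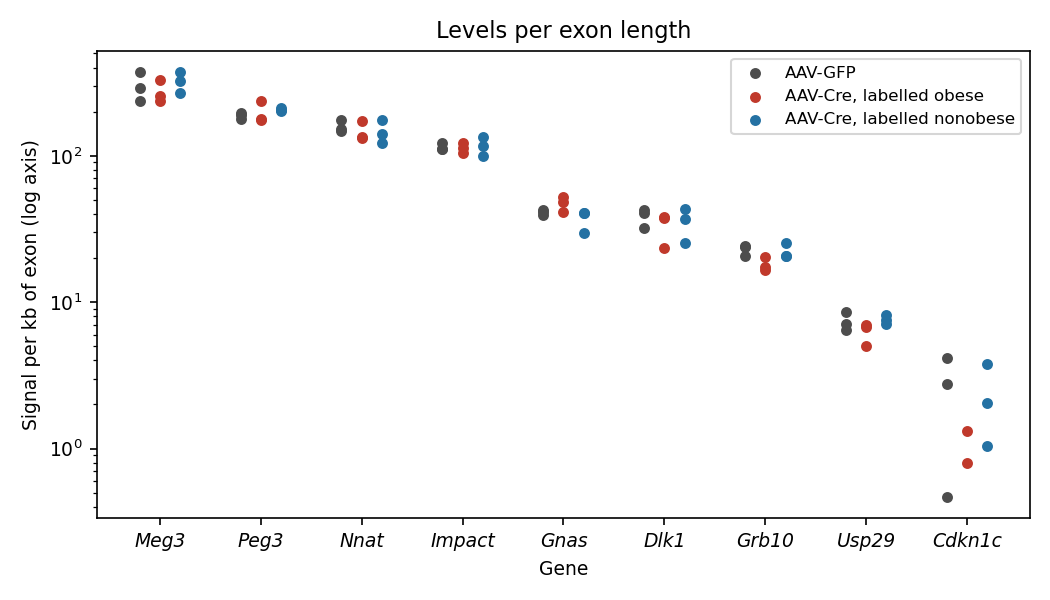
Signal per kb of exon (log axis) of each gene in each mouse, with AAV-GFP mice in grey, AAV-Cre obese-labelled mice in red and those labelled nonobese in blue. Meg3, Peg3, Nnat and Impact lie at 100.1 per kb or more in every mouse, and Cdkn1c is lowest in all 9 (its value of 0 in obese mouse 2 cannot be drawn on this axis).

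As a group the genes varied little between mice of the same treatment. The SD of log2(signal + 1) within groups had a median of 0.20 over the 9 genes and of 0.53 over all tested entries, and it was below the latter in 8 of the 9. Such a comparison also reflects abundance, since abundant genes have less counting error. Cdkn1c was the exception, with a within-group SD of 0.99 at 0 to 44 reads per library. The within-group SD was lowest for Impact, Peg3 and Grb10 (0.15 for each). The standard errors (SE) of the differences below come from limma, which also draws on a trend of spread with abundance. Against AAV-GFP, in either AAV-Cre subset, the SE was lowest for Peg3 (0.13) and Impact (0.15), and was 0.18 for Grb10. Differences of Cdkn1c are hardly resolved at all (SE 0.90).

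Whether injection of AAV-Cre, meant to delete Snord116, was accompanied by a change in these genes was asked first for obese-labelled mice against AAV-GFP mice. Of the 9 genes, 0 had an FDR under 0.1 by limma, where 0.555% of all tested entries did. At an unadjusted p under 0.05 the count was also 0 of 9, against 9.88% of all entries. With the recovered reads, edgeR's quasi-likelihood test, edgeR's likelihood ratio test and DESeq2 each called 0 of 9 as well, and each gave 0 genes at an unadjusted p under 0.05. Over all 13506 entries these tests called 93, 260 and 275 in the same order, so 0 of 9 is near that background. The median size of the log2 fold change (log2 FC), without its sign, was 0.20 over the 9 genes and 0.36 over all entries.

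Peg3 had a signal of 2364, 2596 and 2541 in AAV-GFP mice and of 2361, 3154 and 2334 in AAV-Cre obese-labelled mice. Obese mouse 2 was the highest of all, while the other obese mice were the lowest of all, so the groups overlapped. The log2 FC was 0.05 (SE 0.13, limma FDR 0.929), and the 95% interval of the fold was 0.859 to 1.25. Usp29 had 154, 127 and 117 in AAV-GFP mice against 127, 123 and 91.1 in obese-labelled mice. Obese mouse 3 was the lowest of the 9 mice, and the others lay among the AAV-GFP values, with a log2 FC of -0.23 (SE 0.21, limma FDR 0.763).

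Meg3 had a signal of 5272, 4306 and 6714.5 in AAV-GFP mice and of 4637, 5914 and 4253 in AAV-Cre obese-labelled mice. The spread within AAV-GFP mice was as wide as the spread over both groups, and the log2 FC was -0.13 (SE 0.16, limma FDR 0.846). For Dlk1, its neighbour, the values were 241, 228 and 181 against 214, 216 and 134. Obese mouse 3 was lowest for Dlk1 too, as for Usp29, and the log2 FC was -0.23 (SE 0.22, limma FDR 0.778).

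Nnat had a signal of 321, 278 and 271 in AAV-GFP mice and of 241, 246 and 315 in obese-labelled mice, with a log2 FC of -0.12 (SE 0.18, limma FDR 0.869). Impact had 575, 570.25 and 626 against 627, 583 and 535, and here the groups overlapped nearly whole, with a log2 FC of -0.02 (SE 0.15, limma FDR 0.974). The 95% interval of its fold was 0.798 to 1.21, so changes larger than this range were not seen for Impact. Gnas had 475, 438 and 465 against 462, 586 and 544. Obese mice 2 and 3 were above every AAV-GFP mouse, and mouse 1 was among them. The log2 FC of Gnas was 0.20 (SE 0.16, limma FDR 0.721).

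Grb10 was the only one of the 9 genes whose AAV-GFP mice and obese-labelled mice did not overlap. It had a signal of 218, 218 and 189 in AAV-GFP mice and of 186, 151 and 159 in obese-labelled mice. Every obese mouse was below every AAV-GFP mouse, but the highest of the former lay just under the lowest of the latter. The log2 FC was -0.33 (SE 0.18, limma FDR 0.552), and the 95% interval of the fold, 0.614 to 1.02, includes no change. An exact permutation test gave p = 0.1 (2-sided, n = 3 and 3), which is the smallest that 3 mice against 3 allow. Among all tested entries 14.5% did not overlap between these groups, 7.27% with the obese mice lower, so 1 gene of 9 is near that background. Cdkn1c had 8.48, 0.957 and 5.63 against 2.70, 0 and 1.63. Both groups held mice at a few reads (0 in obese mouse 2, 5 in AAV-GFP mouse 2), and the spread within groups was too wide for a difference to be detected, with a 95% interval of the fold from 0.119 to 1.55.

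**Figure D2:**
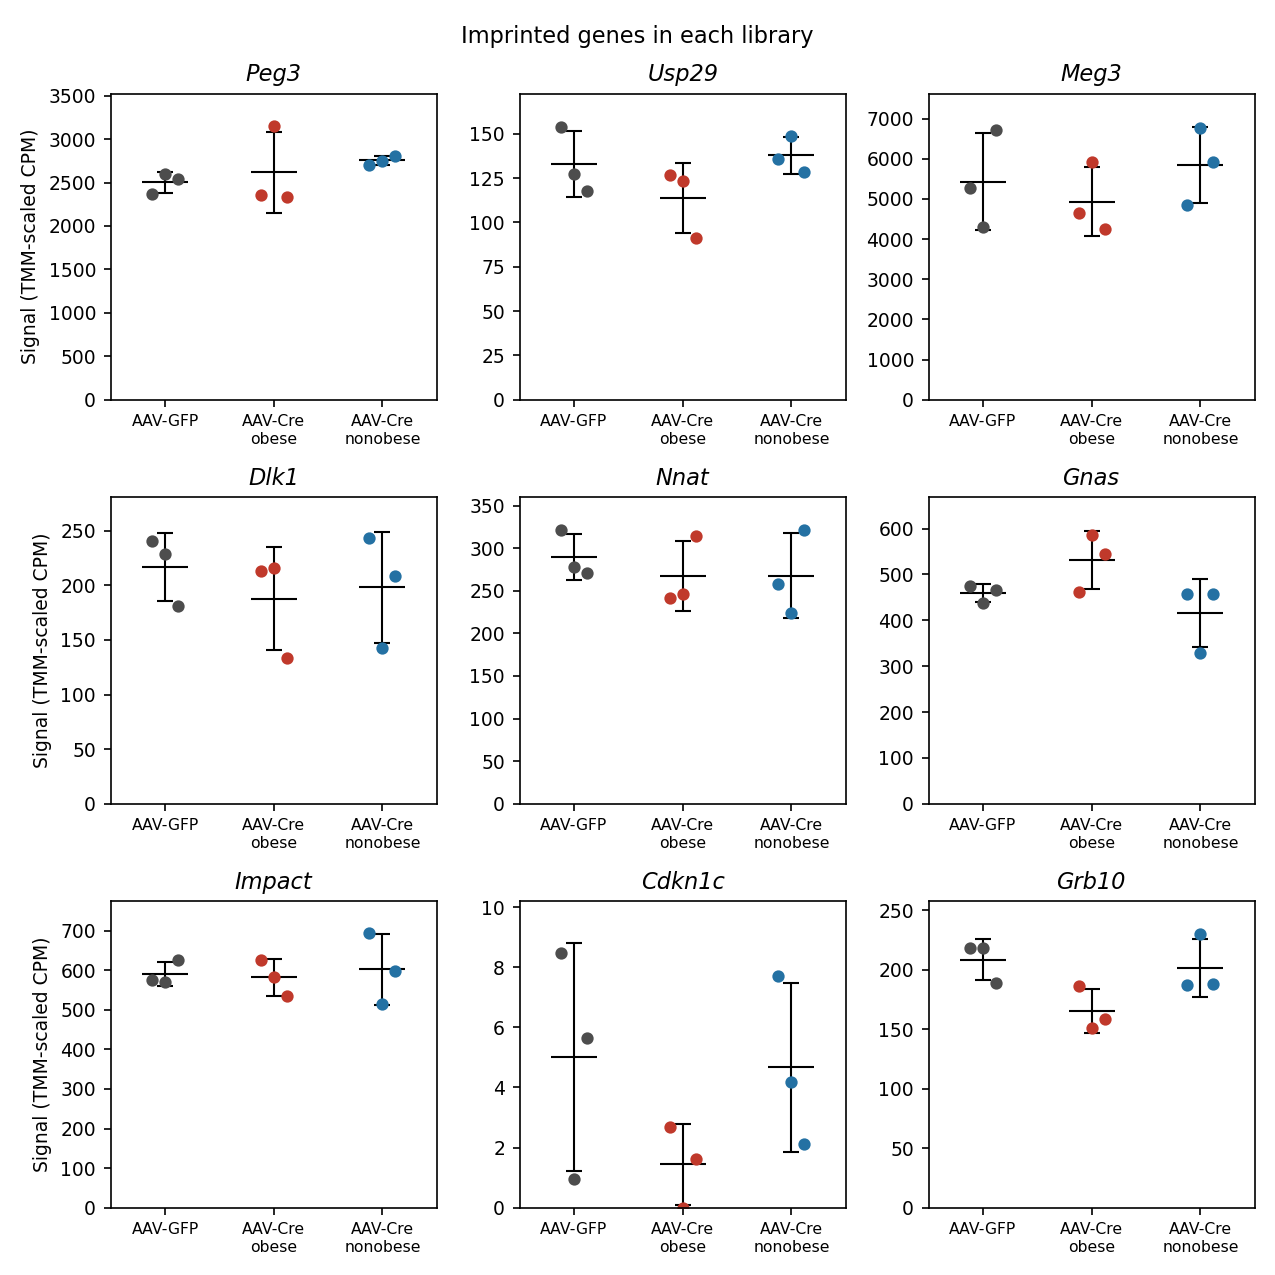
Signal (linear axes from 0) of the 9 genes in each mouse, by group, with 1 point per mouse, a long bar at the mean and error bars of 1 SD (n = 3 mice). The points of the groups overlap in most panels. In the Grb10 panel the 3 obese-labelled mice (151 to 186) lie under the AAV-GFP mice (189 to 218), and in the Peg3 panel the nonobese-labelled mice lie above the AAV-GFP mice.

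AAV-Cre nonobese-labelled mice were nearer still to AAV-GFP mice. Again 0 of the 9 genes had an FDR under 0.1 by limma (0.0148% of all entries did), 0 had an unadjusted p under 0.05 (2.27% of all entries), and DESeq2 and both edgeR tests gave 0 by either measure. Over all 13506 entries DESeq2 called 2, edgeR's quasi-likelihood test 2 and its likelihood ratio test 6. The log2 FCs were between -0.16 for Gnas and 0.14 for Peg3, with a median size of 0.12 against 0.27 over all entries. The FDR was 0.999 for each of the 9 genes. Peg3 had a signal of 2706, 2745 and 2809.7 in nonobese-labelled mice. All 3 values were above the AAV-GFP mice, the only such case among the 9 genes (4.57% of all entries did not overlap with the nonobese mice higher). The Peg3 log2 FC of 0.14 (SE 0.13) was about the size of its SE, and the fold had an interval of 0.913 to 1.33.

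The remaining 8 genes overlapped between nonobese-labelled mice and AAV-GFP mice. Usp29 had a signal of 136, 149 and 128 in nonobese-labelled mice, and Grb10 had 187, 229.7 and 188, so both sat within or beside the AAV-GFP range. Meg3 had 4860.2, 6759.5 and 5908, and Dlk1 243, 142 and 208. Nonobese mouse 2 was thus the highest of the 9 mice for Meg3 and near the lowest for Dlk1. Nnat had 258, 224 and 322, Impact 694, 513 and 599, Gnas 458, 329.8 and 458, and Cdkn1c 7.70, 4.19 and 2.13. Mouse 2 was also the lowest of the 9 mice for Nnat, Impact and Gnas.

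Taking the 6 AAV-Cre mice as a single group against the 3 AAV-GFP mice gave 0 of 9 genes with an FDR under 0.1 by limma (0.0222% of all entries), 0 with an unadjusted p under 0.05 (3.14%) and 0 without overlap (2.01%). DESeq2 and both edgeR tests also gave 0 calls and 0 genes at an unadjusted p under 0.05. Over all 13506 entries DESeq2 called 9, edgeR's quasi-likelihood test 2 and its likelihood ratio test 7. The log2 FCs of the abundant genes were between -0.19 (Grb10 and Dlk1) and 0.10 (Peg3), and that of Cdkn1c was -0.58 (SE 0.82). Intervals show how large an effect these data could have missed. For Impact the 95% interval of the fold was 0.829 to 1.20, for Peg3 0.901 to 1.27, for Meg3 0.802 to 1.24 and for Gnas 0.812 to 1.27. For Nnat it was 0.735 to 1.15, for Usp29 0.721 to 1.23, for Grb10 0.691 to 1.11, for Dlk1 0.664 to 1.15 and for Cdkn1c 0.208 to 2.16. In bulk RNA of a captured region, a change in some cells and a change in the number of cells that express a gene cannot be told apart.

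Between the AAV-Cre subsets, nonobese against obese, 0 of the 9 genes had an FDR under 0.1 by limma (0.948% of all entries) and 1 of 9 had an unadjusted p under 0.05 (11.4% of all entries). That gene was Gnas, which was lower in all 3 nonobese-labelled mice than in any mouse labelled obese, though 458.1 was the highest nonobese value and 462 the lowest obese one. Its log2 FC was -0.36 (SE 0.16, limma FDR 0.378), and an exact permutation test gave p = 0.1 (2-sided, n = 3 and 3), the smallest possible. Without nonobese mouse 2 the log2 FC was -0.20 (limma FDR 0.769). Gnas also had an unadjusted p under 0.05 by edgeR's quasi-likelihood test and by DESeq2, and not by edgeR's likelihood ratio test. Grb10 and Usp29 were higher in all 3 nonobese-labelled mice than in any mouse labelled obese. Their log2 FCs were 0.28 (SE 0.18, limma FDR 0.576) for Grb10 and 0.29 (SE 0.21, limma FDR 0.627) for Usp29. Of all tested entries 13.3% did not overlap between the subsets, 6.61% with the nonobese mice higher and 6.65% with them lower, beside 3 of the 9 genes, 2 higher and 1 lower. These 3 are few, and none was called. The comparisons with AAV-GFP share the control mice, and this one shares the AAV-Cre mice with both, so they are not independent looks at the same genes.

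**Figure D3:**
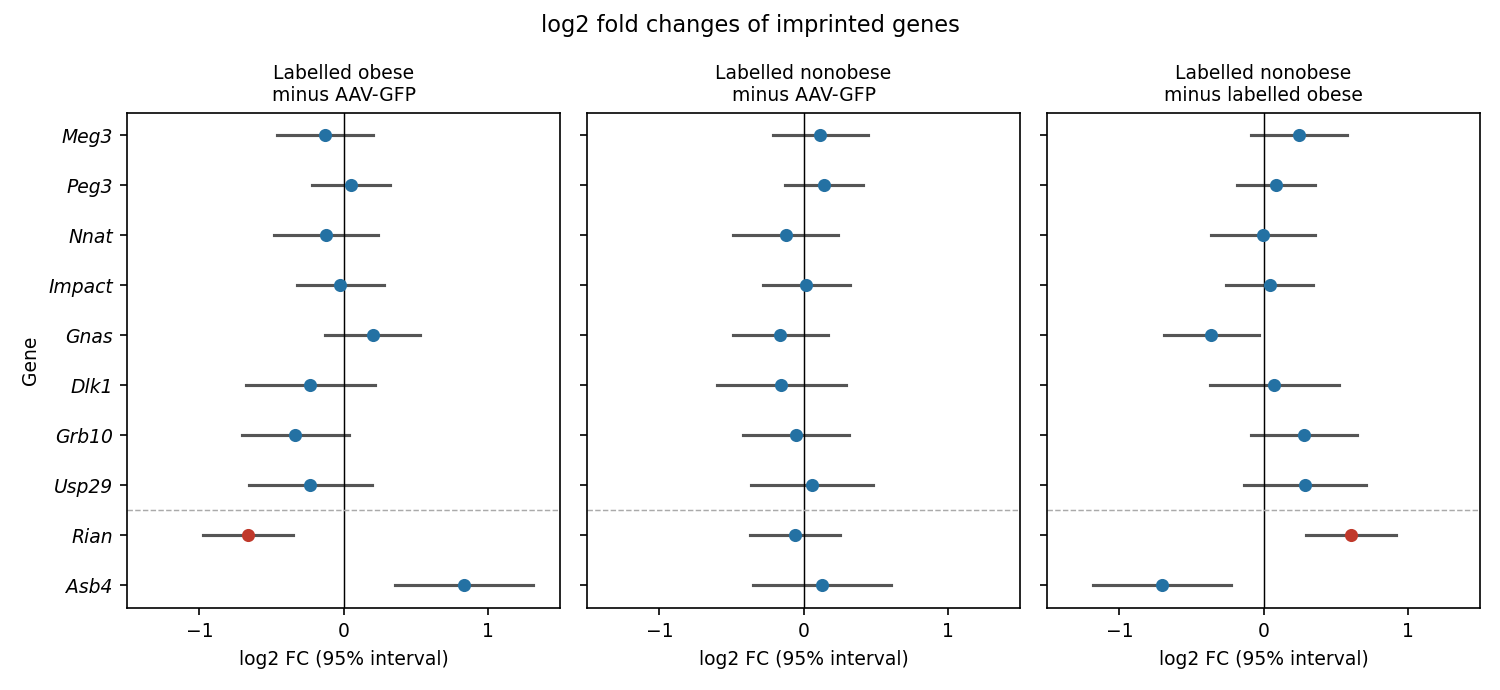
log2 FC (points) with 95% intervals (bars) from limma for 8 of the genes, above the dashed line, and for Rian and Asb4, imprinted genes of the wider list, under it. Red marks an FDR under 0.1. The bars of the 8 genes cross 0 in both comparisons with AAV-GFP, and in the right panel that of Gnas ends just short of 0, while Rian is at -0.67 in obese-labelled mice. Cdkn1c is left out because its intervals are too wide for the axis.

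A wider list of imprinted genes outside the Prader-Willi locus had an entry for 37 of its 46 members. In obese-labelled mice against AAV-GFP, 1 of 37 had an FDR under 0.1, in nonobese mice 0, in all AAV-Cre mice 0, and between the subsets 1. Both calls were Rian. Over all entries the shares with an FDR under 0.1 were 0.555%, 0.0148%, 0.0222% and 0.948% in the same order. The counts at an unadjusted p under 0.05 were 2, 0, 1 and 3 of 37, beside 9.88%, 2.27%, 3.14% and 11.4% of all entries. Rian (ENSMUSG00000097451, chr12:109603940-109661716, plus strand) is a maternally expressed noncoding RNA downstream of Meg3, known as the host of a large array of C/D small nucleolar RNAs, and in this it resembles the host transcript of Snord116.

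Rian was lower in obese-labelled mice, though its call depended on single mice. It had a signal of 576, 587 and 661 in AAV-GFP mice, 328, 459 and 369.6 in obese-labelled mice and 619, 579.6 and 549 in nonobese-labelled mice. All 3 obese mice were below the 6 others, which overlapped. The log2 FC against AAV-GFP was -0.67 (SE 0.15, limma FDR 0.0559) in obese-labelled mice and -0.06 (SE 0.15, limma FDR 0.999) in nonobese-labelled mice, and the subsets differed by 0.61 (SE 0.15, limma FDR 0.0721). Against AAV-GFP the call was lost when any of AAV-GFP mice 1 to 3 or obese mice 1 and 3 was left out, with log2 FCs of -0.56 to -0.70 and an FDR of 0.182 to 0.348. It was kept without obese mouse 2 (-0.80, FDR 0.0011). Between the subsets it was lost, at an FDR of 0.142 to 0.328, when any of them other than obese mouse 2 was left out. Without obese mice 1 and 3, which carried the immune signal described above, the log2 FC was -0.40 (limma FDR 0.432, with obese mouse 2 alone and assumed to vary like the other groups). Leaving out the 4 libraries that lacked Nr5a1 also leaves obese mouse 2 alone in its group, and gave -0.34 (limma FDR 0.695). The marker sums of oligodendrocytes and of endothelium also set the 3 obese-labelled mice, obese mouse 2 included, apart from the 6 others. All 6 oligodendrocyte markers had an entry, and their sum was 835 to 1079.8 in the obese-labelled mice against 1160.0 to 2556 in the 6 others. The sum of 5 endothelium markers (5 of 5 with an entry) was 111 to 150.3 against 69.1 to 106. Of the astrocyte markers 2 of 7 were called higher in obese-labelled mice, with sums of 2332 to 3134 against 1789 to 2399. The part of these cell types, of immune cells or of the cut region in the Rian difference was not tested.

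Among the RNAs around Rian, no other entry had a limma FDR under 0.1 in these comparisons. From Dlk1 to Mirg (chr12:109452823-109749460) the annotation holds 104 genes, of which 12 had an entry, among them 3 of 66 miRNA genes and 4 of 23 small nucleolar RNA genes. Rtl1, a paternally expressed gene derived from a retrotransposon, had a signal of 79.5, 63.8 and 53.2 in AAV-GFP mice, 38.7, 99.6 and 76.2 in obese-labelled mice and 53.4, 83.0 and 74.0 in nonobese-labelled mice. Mirg, the maternally expressed host of a miRNA cluster, had 44.9, 34.9 and 45.25, then 24.75, 41.1 and 28.8, then 40.2, 41.4 and 50.8. Its 2 lowest values were those of obese mice 1 and 3, as for Rian, and its log2 FC in obese-labelled mice was -0.41 (SE 0.32, limma FDR 0.713). The log2 FC of Rtl1 was 0.04 (SE 0.30), beside -0.13 for Meg3 and -0.23 for Dlk1. Gm26922, 1 of the 7 small RNA entries, is a small nucleolar RNA gene within the bounds of Rian on the same strand, so reads of the 2 may not have been kept apart. It was singled out after its values were seen, and had 18 to 104 reads per library. It had a signal of 21.7, 14.0 and 5.83 in AAV-GFP mice, 5.62, 4.09 and 9.53 in obese-labelled mice and 13.7, 12.05 and 22.2 in nonobese-labelled mice. The subsets did not overlap, while obese-labelled and AAV-GFP mice did. Its log2 FC was -0.90 (SE 0.60, limma FDR 0.657) against AAV-GFP and 1.21 (SE 0.60, limma FDR 0.453) between the subsets. The other 6 small RNA entries had log2 FCs of -0.82 to 0.60 in obese-labelled mice, with an SE of 0.43 to 1.14. Relative to Meg3 in the same library, the signal of Rian was 0.109, 0.136 and 0.0985 in AAV-GFP mice, 0.0708, 0.0776 and 0.0869 in obese-labelled mice and 0.127, 0.0857 and 0.0929 in nonobese-labelled mice. The highest obese ratio was above the lowest nonobese ratio, so by this measure the subsets overlapped, while obese and AAV-GFP mice did not.

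**Figure D4:**
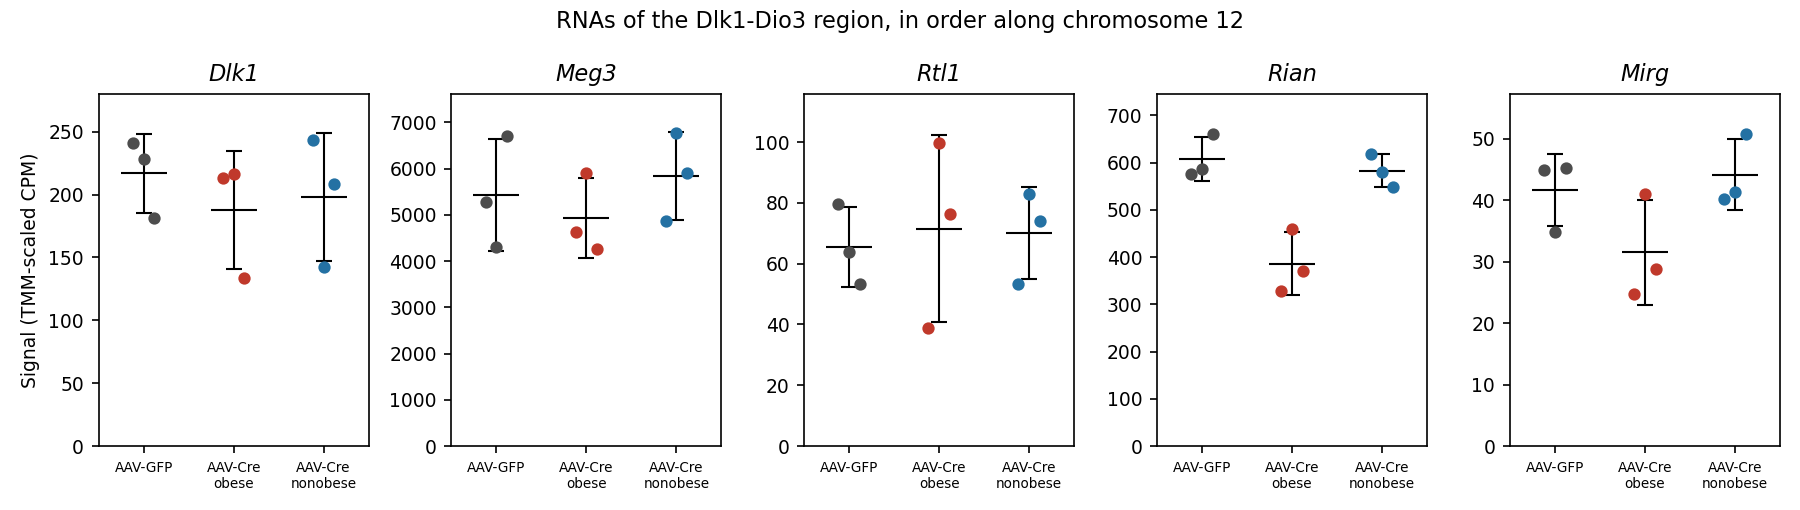
Signal (linear axes from 0) of 5 RNAs of the Dlk1-Dio3 region in each mouse, in their order along the chromosome, with 1 point per mouse, a long bar at the mean and error bars of 1 SD (n = 3 mice). Only in the Rian panel are the 3 obese-labelled mice (328 to 459) apart from both other groups (549 to 661).

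Asb4, an imprinted gene of arcuate neurons that encodes a ubiquitin ligase subunit, was the other gene of the wider list apart in obese-labelled mice on both sides. It had a signal of 93.5, 81.0 and 77.3 in AAV-GFP mice, 144, 145 and 163 in obese-labelled mice and 131, 69.7 and 84.3 in nonobese-labelled mice. Every obese mouse was above the 6 others, though nonobese mouse 1 came close. The immune signal and the lack of Nr5a1 reads in obese mice 1 and 3, described above, hold here too. Pomc, also a gene of arcuate neurons, ranged from 4.65 in obese mouse 3 to 100 in AAV-GFP mouse 1. The part of the cut region, of immune cells or of other cell types in the Asb4 difference was not tested. The log2 FC was 0.84 (SE 0.23, limma FDR 0.154) against AAV-GFP and the subsets differed by -0.71 (nonobese minus obese, SE 0.23, limma FDR 0.209). With DESeq2 the FDR against AAV-GFP was 0.0426, and over all alternatives it was between 0.0426 and 0.649. Airn had a log2 FC of -0.95 (SE 0.96) in obese-labelled mice without overlap, at 4 to 41 reads in these mice. In nonobese-labelled mice, Dcn (-1.29, SE 0.68), Igf2 (-0.97, SE 0.51) and Copg2 (-0.27, SE 0.26) were below every AAV-GFP mouse with an FDR of 0.999 each. Of the 37 genes 3 did not overlap in each of these comparisons, beside 14.5% of all entries in obese-labelled mice and 9.72% in nonobese-labelled mice.

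The factors that keep imprints through cell division and bind imprinting control regions were counted from a list of 14, of which 12 had an entry. None was called, 0 of 12 in each of the 4 comparisons by limma, and 2, 0, 2 and 0 had an unadjusted p under 0.05 (obese, nonobese and all AAV-Cre mice against AAV-GFP, then the subsets), beside 9.88%, 2.27%, 3.14% and 11.4% of all entries. The 2 genes were Dnmt1 and Smchd1 in both cases. Dnmt1, the maintenance DNA methyltransferase, had a signal of 75.5, 96.3 and 92.1 in AAV-GFP mice and of 109 to 143 in the 6 AAV-Cre mice. All 6 were above all 3 controls, with a log2 FC of 0.40 (SE 0.19, limma FDR 0.999). The exact permutation p for this single gene was 0.0119 (2-sided), the smallest that 6 mice against 3 allow, and 2.01% of all entries did not overlap in this comparison. Smchd1, a chromatin protein of the inactive X chromosome and of imprinted clusters, had a log2 FC of 0.50 (SE 0.24, limma FDR 0.999) in all AAV-Cre mice, with overlap.

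For the divergent pair that flanks the sequence shown above, no relation from mouse to mouse was detected, and 9 mice are too few to exclude one. Across the 9 mice, Pearson's r of log2(signal + 1) between Peg3 and Usp29 was 0.22 (exact permutation p = 0.575, adjusted p = 0.622) and Spearman's rho was 0.28 (exact permutation p = 0.463, adjusted p = 0.644). Without the 2 mice farthest from the median of Peg3, r was -0.05. For Dlk1 and Meg3, the other pair of neighbours among the 9 genes and the only other relation of this family, r was -0.18 (exact permutation p = 0.622, adjusted p = 0.622) and rho -0.18 (exact permutation p = 0.644, adjusted p = 0.644), and without the 2 mice farthest from the median of Dlk1 r was -0.70. The ratio of Peg3 to Usp29 signal was 19.1 ± 3.31 (SD, n = 3) in AAV-GFP mice, 23.3 ± 4.02 in obese-labelled mice and 20.1 ± 1.72 in nonobese-labelled mice, with overlap between all groups.

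Within the 6 AAV-Cre mice Peg3 had the same order as the Cre signal. This relation was looked for after the values were seen, in all 9 genes. Ordered by Cre signal (235, 1330, 4644, 5136, 7064 and 8557, from obese mouse 3 and obese mouse 1 through nonobese mice 1, 2 and 3 to obese mouse 2), the Peg3 signal was 2334, 2361, 2706, 2745, 2809.7 and 3154, which is the same order. Spearman's rho was therefore 1 (exact permutation p = 0.00278, the smallest that 6 mice allow, adjusted p = 0.025 over 9 genes), and Pearson's r on the log2 scale was 0.87 (exact permutation p = 0.00694, adjusted p = 0.0625). Without the 2 mice farthest from the median Cre signal, obese mice 3 and 1, r was 0.89. It then rests on the 3 nonobese mice and obese mouse 2. A rho of 1 fixes the order among the 3 mice of each weight label too, so that order is no separate support. For the other 8 genes the adjusted p was at least 0.194. Of the 13505 other tested entries, Peg3 among them, 24 (0.178%) had the same order as Cre and 27 (0.200%) the opposite one. Random pairing gives a share of 0.00278 for both orders together, so Peg3 is 1 of a number of entries not far above that. The adjusted p covers the 9 genes only and does not allow for the values having been seen first. The summed signal of 8 neuron markers had a rho of 0.71 with Cre in these mice, and that of MHC class I and interferon genes -0.43. None of the 8 neuron markers had the order of Cre (0 of 8). Since only 0.178% of entries had it, this count cannot show whether neuron content has a part. The 2 mice lowest in Cre were those with the immune signal and the lowest neuron sums. The part of that signal and of these sums in the Peg3 order was not tested beyond leaving out the same 2 mice. AAV-GFP mice, with a Cre signal under 1, had Peg3 at 2364 to 2596, between the lowest and the middle of the AAV-Cre mice.

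**Figure D5:**
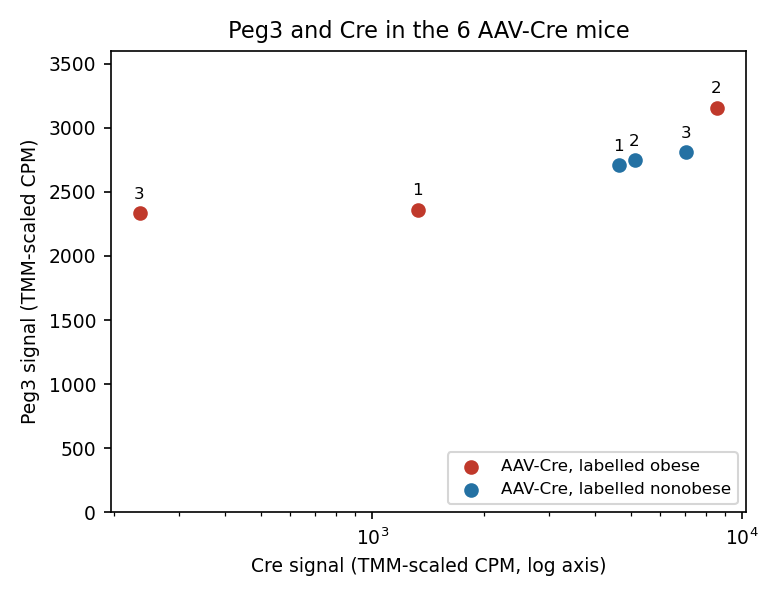
Peg3 signal (linear axis from 0) against Cre signal (log axis) in the 6 AAV-Cre mice, numbered by replicate within their weight label. Peg3 goes from 2334 in obese mouse 3, lowest in Cre, to 3154 in obese mouse 2, highest in Cre, with the nonobese-labelled mice between 2706 and 2809.7.

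For each of the 9 genes, the entries most alike across the 9 mice were picked by Pearson's r of log2(signal + 1) among about 9764 entries with a mean signal of at least 10. This is a description, since with 9 mice and so many candidates high values arise for any gene. Peg3 was most like Rpl35a (r = 0.946) and Camsap2 (0.926), and Usp29 most like Mtmr6 (0.964) and Nsg1 (0.960). Meg3 was most like Crmp1 (0.940) and Ubqln4 (0.907), and Dlk1 most like Zdhhc14 (0.953) and Ostm1 (0.945). For Nnat the entries were Slc23a2 (0.967) and Tprkb (0.958), for Gnas Sema7a (0.952) and Paxx (0.939), and for Impact Lrtm2 (0.949) and Hectd2 (0.912). Cdkn1c was most like Ralgapa2 (0.956) and Hbb-bs (0.916), and Grb10 most like Gm1604a (0.970) and Kcna1 (0.967). No gene of the 9 or of the wider imprinted list was among these 18 entries (0 of 18). At most the 9 and the 37 genes of that list were among the about 9764 candidates. So few could hardly be picked, and the count is no result about imprinted genes.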

How the data were processed

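The authors mapped reads to GRCm38 with TopHat2 2.0.11 and, per the labels, used HTSeq and edgeR. The deposited signal values are reads per gene divided by a TMM-scaled library size, and 100% were whole multiples (tolerance 0.01 reads) of the signal of 1 read, which gave back the reads. Library depth was 3929672 to 5766994 reads, and 3 reads were taken as the floor (counting error only).

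Tests used limma 3.58.1 in R 4.3.3 on log2(signal + 1), with a variance trend and all 3 groups in a fit (2 for all AAV-Cre mice). The 13506 entries tested reached a signal of 1 in 3 libraries or more. Benjamini-Hochberg values over all of them are given as FDR. The scale understates changes of low genes. The design was written for CPM, and the same test was kept for signal. Single values were compared by 2-sided exact permutation tests. Alternatives included pseudocounts of 0.1 and 5, other filters, no variance trend, centring, edgeR 4.0.16 and DESeq2 1.42.0 on reads, a replicate block and leaving out each mouse. Procedures were tested on simulated data with changes far larger than those reported here, which does not show the power for small changes. Genes named are the 9, genes of the wider list with an FDR under 0.1 or, up to 4 per comparison, the largest changes without overlap, and the 2 entries most alike to each. Dnmt1, Smchd1, Rtl1, Mirg and Gm26922 were named after their values were seen. The members and lists were chosen with earlier results of these data known. Nothing says whether mice shared litters, so p-values measure the spread between these mice.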

Additional observations from a re-analysis of the deposited data

Results flagged for a closer look

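Rian was marked because its difference from AAV-GFP mice was not the same in the AAV-Cre subsets, by a test of that difference itself. The log2 FC of nonobese-labelled mice against obese-labelled mice was 0.61 (SE 0.15, limma FDR 0.0721), with all 3 nonobese mice higher than all 3 obese mice. None of the 9 genes had a library far from the rest among the 6 AAV-Cre mice (0 of 9, where chance gives 0.45).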

How the results depend on the processing

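Of the 9 genes, 0 were called in any of the 4 comparisons under any alternative, with a lowest FDR of 0.162 (Meg3, nonobese against obese, without obese mouse 2). Calls over all entries ranged widely, from 1 to 720 around 75 in obese-labelled mice against AAV-GFP, from 1 to 6 around 2 in nonobese mice, from 2 to 9 around 3 in all AAV-Cre mice and from 0 to 908 around 128 between the subsets. With 3 mice a group, a change well inside the intervals given could not be seen, and the intervals of Cdkn1c were the widest of the 9. The causes of the changes below were not tested, beyond the smaller number of mice where mice were left out.

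In the wider list, the 1 call in obese-labelled mice became 0 with no variance trend, with only the 2 groups compared or without the 4 libraries at 0 Nr5a1 reads, 2 with DESeq2 or edgeR's likelihood ratio test (Rian and Asb4), and 0 to 3 when each mouse was left out. Without the 2 libraries highest in MHC class I it stayed at 1, but the gene was Sgce and not Rian. Between the subsets the 1 call became 0 with a pseudocount of 0.1, no variance trend, edgeR's quasi-likelihood test, only the 2 groups compared, or without the 2 libraries highest in MHC class I or the 4 at 0 Nr5a1 reads, 2 with DESeq2 (Rian and Igf2), and 0 to 2 when each mouse was left out. With the likelihood ratio test it stayed at 1, but the gene was Igf2 and not Rian. Calls over all 13506 entries moved as well. In obese-labelled mice against AAV-GFP they were 75 in the main fit, 275 with DESeq2, 260 with the likelihood ratio test and 720 without obese mouse 2. Between the subsets they were 128, 389, 398 and 908 in the same order. The counts of the wider list cannot be read apart from these. The likelihood ratio test and the exclusions by MHC class I or Nr5a1 were chosen after seeing the data. The main fit did not pair mice by replicate number. Deviations from the group mean correlated at -0.02 to 0.09 between same-numbered mice, and at -0.09 to 0.04 between mice of different groups and numbers. A replicate block gave 200 calls over all entries in obese-labelled mice (75 without it) and 271 between the subsets (128 without it). In the mice numbered 3, the Pomc signal was 8.16 (AAV-GFP), 4.65 (obese) and 12.8 (nonobese), below every mouse numbered 1 or 2. Nr5a1 had 0 reads in these mice, and in obese mouse 1 too. Agrp did not set them apart, with a signal of 13.9 in nonobese mouse 3 and 0 in obese mouse 1. Whether same-numbered mice shared a captured region was not tested. With the replicate block, 0 of the 9 genes were called in each comparison and the wider list gave 2 calls in obese-labelled mice (Rian and Asb4).

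The sign of these log2 FCs turned, none of them called. In obese-labelled mice these were Peg3 (-0.014) with centring on library medians, Meg3 (0.15) and Dlk1 (0.0054) without the libraries highest in MHC class I, and Meg3 (0.31) and Impact (0.027) without those at 0 Nr5a1. In nonobese-labelled mice Cdkn1c turned with a pseudocount of 5 (-0.012), edgeR (-0.096 in both tests) and DESeq2 (-0.10). In all AAV-Cre mice the turned values were Gnas (-0.015) with centring, Impact with edgeR (0.0041 and 0.0042) and DESeq2 (0.014), Meg3 (0.12), Impact (0.010), Gnas (-0.033) and Usp29 (0.019) without the MHC class I libraries, and Meg3 (0.28), Impact (0.049) and Gnas (-0.033) without those at 0 Nr5a1. Between the subsets they were Nnat with centring (0.059) and edgeR (0.0024 in both tests), Peg3 (-0.20), Meg3 (-0.031), Dlk1 (-0.16) and Nnat (0.10) without the MHC class I libraries, and Peg3 (-0.21), Meg3 (-0.045) and Dlk1 (-0.21) without those at 0 Nr5a1.

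Leaving out each mouse in turn, signs also turned within these ranges. In obese-labelled mice they were -0.079 to 0.036 for Impact, -0.28 to 0.036 for Meg3 and -0.090 to 0.13 for Peg3. In nonobese-labelled mice they were -0.61 to 0.53 for Cdkn1c, -0.32 to 0.064 for Dlk1, -0.089 to 0.13 for Impact, -0.039 to 0.28 for Meg3 and -0.026 to 0.17 for Usp29. In all AAV-Cre mice they were -0.046 to 0.12 for Gnas, -0.050 to 0.041 for Impact, -0.16 to 0.16 for Meg3 and -0.17 to 0.024 for Usp29. Between the subsets they were -0.15 to 0.29 for Dlk1, -0.066 to 0.15 for Impact and -0.14 to 0.12 for Nnat.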
